A study of Mus musculus with 2 samples.

Results

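The guanylate-binding proteins (Gbp genes) and the immunity-related GTPases (Irg genes) are families of interferon-induced GTPases, and 10 of their members were examined here in mouse regulatory T cells. The members were the genes with the GENCODE M21 names Gbp2, Gbp3, Gbp4, Gbp5, Gbp6, Gbp7, Gbp8, Gbp9, Igtp and Irgm1. They are 10 of the 55536 named genes in each gene table, and all 10 are annotated as protein coding. They were chosen by name and not by a threshold on a measured value.

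The libraries held polyadenylated RNA of primary regulatory T cells, the CD4 T cells that depend on the transcription factor Foxp3 and restrain immune responses. The donor was a male mouse, 9 weeks old, of a strain that carries Foxp3GFP-DTR (a reporter and diphtheria toxin receptor allele at Foxp3), CD4CreERT2 (an inducible Cre recombinase allele) and R26tdTomato (a reporter at the R26 locus). These alleles are shared by all samples, since there was 1 group of 2 technical replicate libraries of 1 biological replicate. The labels gave no treatment and no purification method, and did not state whether 1 RNA sample fed both libraries. A p-value here measures only counting error between these libraries, which hold PCR-amplified reads without molecular identifiers, and says nothing about variation between animals.

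The expected counts of named genes summed to 20891069 for technical replicate 1 and to 18571065 for technical replicate 2. The markers of the labelled cell type were present: all 5 regulatory T cell markers and all 4 T cell markers reached 1 TPM (a level scaled for transcript length and depth to a fixed total) in both libraries, with Foxp3 at 88.6 and 83.6 TPM. Markers of other cell types were low. The macrophage or monocyte list, with 4 of 6 genes detected, summed to 31.5 and 24.6 TPM. The CD8 T cell list (1 of 2 detected) summed to 26.2 and 23.4 TPM, almost wholly in Cd8b1, and the dendritic cell list (1 of 6) to 13.5 and 8.06 TPM. The B cell list (1 of 4) summed to 8.58 and 8.40 TPM, the NK cell list (1 of 4) to 8.06 and 5.28 TPM, and the endothelial or epithelial list (1 of 4) to 1.33 and 2.82 TPM. None of the 4 neutrophil markers was detected, and S100a8, S100a9 and Ly6g were listed at 0 in both libraries, as was the endothelial marker Cdh5. Several of the GTPases are also made by macrophages, dendritic cells and B cells, and the part of such cells in the levels below was not tested.

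Gbp proteins are large GTPases of the dynamin superfamily that assemble on the membranes of vacuoles holding intracellular pathogens, and on some pathogens themselves. Irg proteins are smaller GTPases. Effector Irg proteins load onto such vacuoles, while the regulators Igtp (also called Irgm3) and Irgm1 sit on the cell's own membranes and hold the effectors inactive there. Transcription of both families is induced by interferon gamma, and of many members by type I interferons, through transcription factors that include IRF9 and IRF1.

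The promoters are shown because the same short motif recurs in them. In the RefSeq promoter table of build GRCm38.p6, which gives 250 bases before to 50 bases after each start, 6 of the 10 members had entries, with 7 promoters in all. Gbp4, Gbp6, Gbp8 and Gbp9 were not matched. Both strands were searched for the core of the interferon-stimulated response element, GAAA followed after any 2 bases by GAAA, and for TTCNNNGAA, the core of the gamma-activated site of interferon gamma response genes. The stretches follow 5′ to 3′ on the strand of each gene, with the matches to either motif in capitals, and positions count from the RefSeq start.
Gbp2, chr3:142620589-142620628, plus strand: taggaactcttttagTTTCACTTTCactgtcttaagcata
Gbp5, chr3:142496754-142496793, plus strand: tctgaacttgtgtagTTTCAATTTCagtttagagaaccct
Gbp3, chr3:142559984-142560029, plus strand: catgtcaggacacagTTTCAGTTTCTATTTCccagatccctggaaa
Gbp7, chr3:142530215-142530307, plus strand: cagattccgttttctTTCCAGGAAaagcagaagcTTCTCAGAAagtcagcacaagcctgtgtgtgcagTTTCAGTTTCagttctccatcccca
Irgm1, chr11:48871421-48871465, minus strand: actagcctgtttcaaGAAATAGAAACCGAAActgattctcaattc
Igtp, chr11:58199496-58199546, plus strand: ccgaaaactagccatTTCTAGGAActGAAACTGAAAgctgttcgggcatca

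The response element core was found in 6 of the 7 promoters and in all 6 members with an entry, whereas 3.44% of the 32851 promoters in the table held it. In Gbp3 and in Irgm1 a pair of matches overlapped each other. The matches lay before the start in every case, from -165 to -156 in Gbp5 and nearer the start in the others, down to -24 to -15 in Irgm1. TTCNNNGAA was found in 3 members, Gbp5, Gbp7 and Igtp, against 8.30% of all promoters, and did not overlap a match to the first motif in them. The matches to it in Gbp5, from -245 to -237 and from -52 to -44, lie outside the printed stretch. Both motifs together stood in 0.454% of all promoters. Of the 2 promoters of Gbp3, the one without a match ends just before the first exon of Gbp3-202, and the one with the printed stretch reaches into the first exon of Gbp3-203. A match is a description of the letters and not a measured binding site.

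All 10 members were detected, that is, at 1 TPM or more in both libraries, while 23.4% of all named genes and 47.5% of the 22028 protein-coding genes were. Their mean levels ran from 40.8 TPM for Gbp5 to 386 TPM for Igtp. These levels were 1.60-fold to 15.2-fold above the median of the 10472 detected protein-coding genes, which was 25.5 TPM. Igtp stood at rank 328 of those genes, with 96.9% of them below it, and Gbp5 at rank 3927, with 62.5% below it. The 10 members together took 0.298% of the counts of technical replicate 1 (95% exact Clopper-Pearson interval 0.295% to 0.300%) and 0.284% of those of technical replicate 2 (0.281% to 0.286%). The intervals cover counting error only, and a higher level in bulk RNA cannot be told apart from a larger share of cells that make the transcript.

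**Figure D1:**
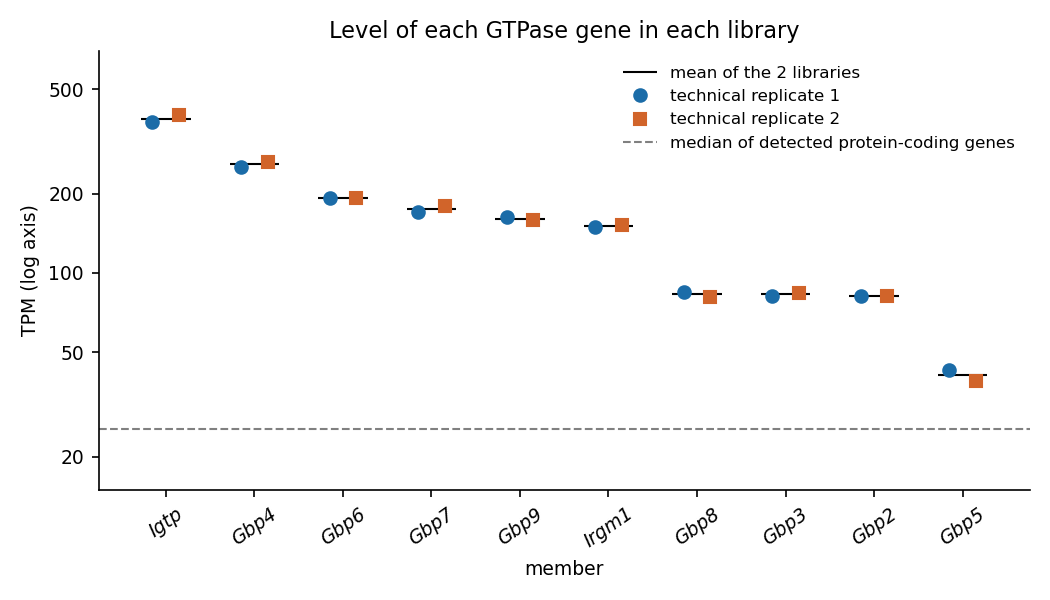
The level of each member in TPM (log axis) in technical replicates 1 and 2, with the mean as a bar and the median of detected protein-coding genes as a dashed line. Igtp was highest, Gbp8, Gbp3 and Gbp2 lay together near 82 to 83 TPM, and every member lay above the median of 25.5 TPM in both libraries.

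Of the Irg regulators, Igtp was the most abundant of the 10 members. The gene lies on the plus strand of chr11:58199556-58207591 in mm10, and its level was 375 TPM in the first library and 398 TPM in the other (mean 386 ± 16.6, SD, n = 2 libraries). Irgm1, on the minus strand of chr11:48861968-48871683, stood at 150 and 152 TPM (151 ± 1.12, SD, n = 2 libraries). Mice without Irgm1 are known to lose control of several intracellular bacteria and to lose lymphocytes during infection. Igtp was higher than Irgm1 in both libraries, without overlap. The summed level of both was 525 and 550 TPM.

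The 4 Gbp members of chromosome 3 lie on the plus strand in a cluster that also holds Gbp2b, and summed to 376 and 385 TPM. Gbp7, which is known to act with autophagy proteins and the phagocyte oxidase in macrophages, was the highest of them, at 170 and 180 TPM (175 ± 7.04, SD, n = 2 libraries; chr3:142530342-142550149). Gbp3 stood at 81.6 and 84.1 TPM (82.8 ± 1.81, SD, n = 2 libraries; chr3:142560026-142573209). Gbp2, a lipid-modified member that coats vacuoles of the parasite Toxoplasma, stood at 81.9 and 82.1 TPM (82.0 ± 0.0990, SD, n = 2 libraries; chr3:142620602-142638008). The levels of Gbp3 and Gbp2 overlapped between the libraries, so no order between them was measured. Gbp5, also lipid-modified and linked to inflammasome activation, was the lowest member, at 42.6 and 38.96 TPM (40.8 ± 2.57, SD, n = 2 libraries; chr3:142493978-142522344). Its values lay below those of every other member in both libraries.

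The 4 Gbp members of chromosome 5 lie on the minus strand in another cluster, which also holds Gbp10, Gbp11 and Gm43302, and summed to 694 and 697 TPM, more than the 4 members of chromosome 3 in both libraries. Gbp4 was the highest Gbp member, at 254 and 264 TPM (259 ± 7.52, SD, n = 2 libraries; chr5:105115767-105139586). Gbp6 followed at 192.5 TPM in both libraries (193 ± 0.0212, SD, n = 2 libraries; chr5:105270702-105293698). Gbp9 stood at 163 and 159 TPM (161 ± 2.66, SD, n = 2 libraries; chr5:105077630-105139539). These 3 genes kept the same order in both libraries, without overlap. Gbp8 was the lowest of these 4 members, at 84.9 and 80.9 TPM (82.9 ± 2.84, SD, n = 2 libraries; chr5:105014150-105139540). Its range overlapped those of Gbp3 and Gbp2 on chromosome 3.

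Ordered over all 10 members, the levels fell in the order Igtp, Gbp4, Gbp6, Gbp7, Gbp9, Irgm1, then Gbp8 with Gbp3 and Gbp2, then Gbp5. Neighbours differed by little in the middle of this order, with Gbp9 1.07-fold above Irgm1 and Gbp7 1.09-fold above Gbp9. The deposited bounds belong to the posterior mean TPM, a second estimate of each level, and TPM can lie above them. In the members this estimate was 0.892 to 0.910 of TPM. The bounds of Gbp7 and Gbp9 overlapped in technical replicate 1 (149.4 to 157.3 and 143.2 to 150.9). In technical replicate 2 those of Gbp9 and Irgm1 overlapped (137.0 to 145.8 and 130.0 to 138.6). There the bounds of Gbp6 and Gbp7 also met (163.4 to 177.4 and 155.1 to 163.8). The widest steps were from Gbp2 to Gbp5, 2.01-fold, and from Irgm1 to Gbp8, 1.82-fold. With 2 libraries of 1 biological replicate, this order has no check across animals.

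How far each level belongs to its gene depends on the sequence it shares with its copies. All transcripts in GENCODE M21 were cut into windows of 50 bases, the length that the deposited effective lengths point to, and each member's windows were sought on both strands in the transcripts of all other genes. Gbp6 shared 70.7% of its 6096 windows with other genes, far more than any other member. Gbp8 followed with 18.1%, Gbp7 with 12.7% and Igtp with 11.8%, and the other 6 members shared between 0.379% (Irgm1) and 8.05% (Gbp9). The counts of Gbp5 and Irgm1, the members with the lowest sharing, were whole numbers in both libraries, 1726 and 1352 for Gbp5 and 4560 and 3882 for Irgm1.

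The main partner of Gbp6 was Gm43302, a protein-coding gene model that overlaps it on the same strand and shares 65.0% of its windows, followed by Gbp10 with 45.9%. Gm43302 also spans Gbp10 and shares 72.1% of the Gbp10 windows. Gbp10 is a Gbp copy outside the 10 members, listed at 84.9 and 81.1 TPM, and Gm43302 was listed at 10.6 and 16.7 TPM. In the coding bases, Gbp6 and Gbp10 differed at 30 of 1833 aligned positions, an identity of 98.4%, with a longest identical run of 421 bases. The densest part of their difference is printed below, from coding position 1546 to 1645 counted from the first coding base, with the 12 differing bases in capitals. Reads that cover such bases can tell Gbp6 from Gbp10, while reads within the identical runs cannot. Whether the printed bases also occur in Gm43302 was not tested.
Gbp6 (Gbp6-201): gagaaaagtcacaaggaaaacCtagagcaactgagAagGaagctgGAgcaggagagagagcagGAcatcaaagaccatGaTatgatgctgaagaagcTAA
Gbp10 (Gbp10-201): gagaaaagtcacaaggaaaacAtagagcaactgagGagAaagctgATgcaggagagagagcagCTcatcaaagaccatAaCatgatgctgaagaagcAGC

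The 4 members of chromosome 5 shared between 90.2% and 92.9% of aligned coding bases with each other, with Gbp4 and Gbp8 the closest pair. On chromosome 3 the closest pair was Gbp3 and Gbp7 with 78.3%, and the other pairs there lay between 64.4% and 69.1%. Gbp3 and Gbp7 were nearer to the chromosome 5 members, with 72.5% to 75.4%, than to Gbp2 and Gbp5 on their own chromosome. Gbp2 was nearest to Gbp2b, the mouse gene often called Gbp1, with 82.5%. Igtp was nearest to Irgm2, another Irg regulator, with 73.1%, and the 2 genes also overlap on the same strand, with Irgm2 listed at 64.0 and 66.6 TPM. Gbp with Irg pairs aligned at 59.8% to 64.9%. Identity counts only bases aligned without a gap, and the value that unrelated coding sequences would reach was not tested. The 10.5% of Gbp7 windows shared with Gm43802, a processed pseudogene inside Gbp7, met a gene listed at 0 in both libraries.

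**Figure D2:**
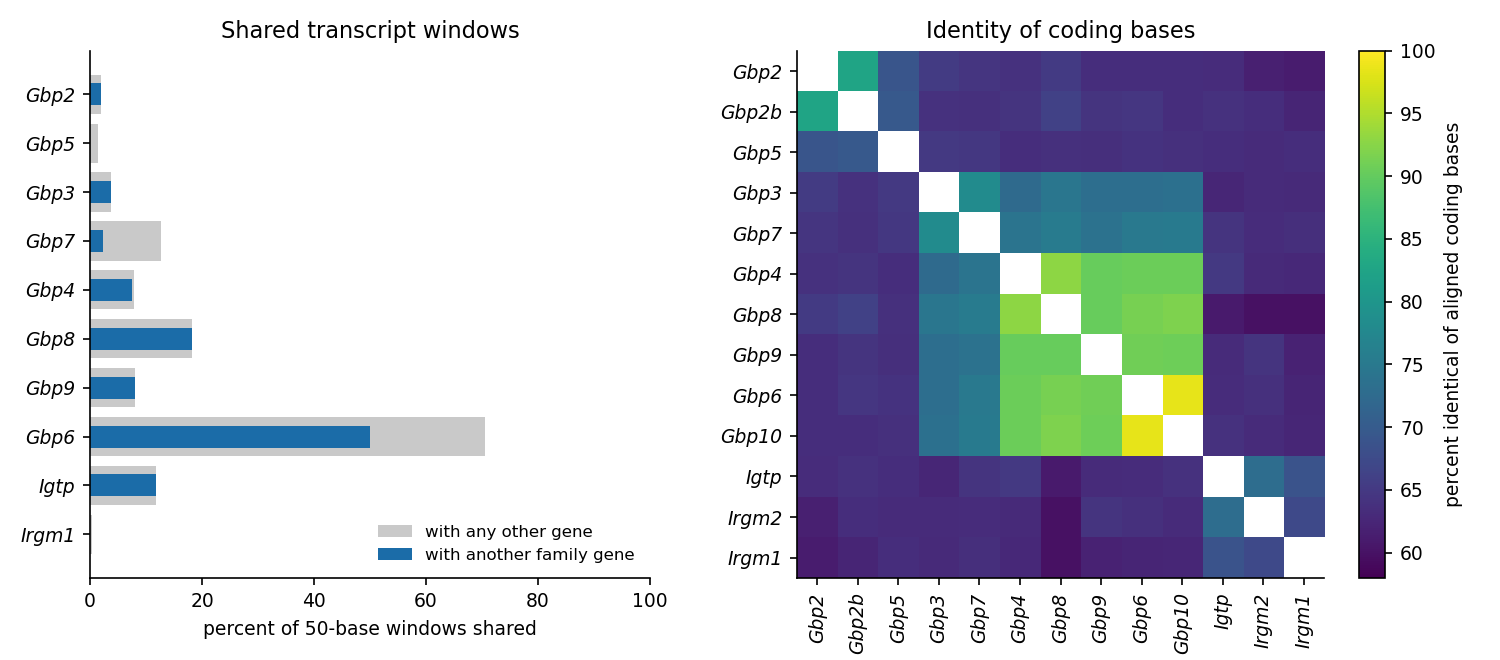
Left, the percent of each member's 50-base transcript windows that occur in any other gene (grey) or in another gene of the families (blue); right, the percent of identical aligned coding bases for each pair among the members, Gbp2b, Gbp10 and Irgm2. Gbp6 stands apart at 70.7% of windows, and the chromosome 5 genes form a block above 90% identity.

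The older gene tables, whole-number counts on GENCODE M4, offered a second count for 8 members, and Gbp5 and Gbp6 were not matched there. Over 9155 protein-coding genes with at least 200 counts, the older count was at the median 0.450 times the newer expected count in the first library and 0.479 times in the other. Gbp3 (0.541 and 0.602) and Gbp2 (0.526 and 0.573) lay above that median. Gbp4 had the lowest ratio of the members, 0.190 and 0.217, followed by Gbp9 with 0.208 and 0.230 and Igtp with 0.215 and 0.231. Irgm1, Gbp8 and Gbp7 lay in between, from 0.308 to 0.365 in technical replicate 1. The quartiles over those genes were 0.279 and 0.614 in technical replicate 1, so that Gbp4, Gbp9 and Igtp lay below the lower quartile and the other 5 members within the quartiles. The part of shared sequence, of changed gene models or of the way of counting in this was not tested.

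At the transcript level, the 10 members had 39 annotated transcripts, and the same transcript led in both libraries for all 10 genes. Gbp4 stood apart from the others. Its leading transcript was Gbp4-202, which is annotated as a target of nonsense-mediated decay, the pathway that degrades messages with a premature stop codon. Gbp4-202 took 61.9% of the gene's TPM in the first library and 54.2% in the other, at 157 and 143 TPM. The annotated full-length coding transcript, Gbp4-201, took 5.79% and 6.52%, at 14.7 and 17.2 TPM, and the short coding transcript Gbp4-203 took 23.8% and 28.1%. Gbp4 was the single member led by a transcript of this class, whereas 3.08% of the 10472 detected protein-coding genes were, and 11.4% were led by a transcript annotated as other than protein coding.

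Gbp4-202 lacks 29 bases that Gbp4-201 has at the end of exon 2, at chr5:105136810-105136838 on the minus strand of mm10. All of these bases lie in the coding part of Gbp4-201, which is 1893 bases long, while the annotated coding part of Gbp4-202 is 309 bases. The segment follows in capitals between its flanks in Gbp4-201, because it is the only difference between Gbp4-201 and Gbp4-202.
Gbp4 (Gbp4-201): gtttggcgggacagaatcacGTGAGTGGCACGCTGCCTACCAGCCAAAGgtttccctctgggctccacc
Of the 4460 windows of Gbp4-202, 47 were found in no other transcript. Of the 4489 windows of Gbp4-201 and the 660 of Gbp4-203, none was. The share of Gbp4-202 therefore rests on few positions.

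The other chromosome 5 members were also divided between transcript classes. Gbp6 was led by its coding transcript Gbp6-201 (61.1% and 62.9%), with 25.3% and 24.8% in the nonsense-mediated decay transcript Gbp6-203. All 2555 windows of Gbp6-201 were also found in some other transcript. Gbp9 was led by the coding transcript Gbp9-202 (44.3% and 42.2%), with 36.3% and 34.3% in Gbp9-203, annotated as a retained intron. Gbp8 was led by the coding transcript Gbp8-201 (50.7% and 58.7%), with 32.5% and 26.4% in the processed transcript Gbp8-204, which has no annotated coding part. All 1853 windows of Gbp8-204 were also found in some other transcript.

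The coding transcripts Gbp8-201 and Gbp9-202 begin in the same first exon as all 6 Gbp4 transcripts, within chr5:105139480-105139586. Every window of both transcripts was also found in some other transcript. The remaining Gbp8 and Gbp9 transcripts begin elsewhere. The shared first exon thus served all of Gbp4, 50.7% and 58.7% of Gbp8 and 44.3% and 42.2% of Gbp9 in the deposited division.

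The Irg members and the chromosome 3 Gbp members were mostly coding. Igtp-201 took 84.2% and 80.9% of Igtp, and the other Igtp transcripts were coding as well. Irgm1 was divided between the coding transcripts Irgm1-201 (65.7% and 57.1%) and Irgm1-202 (34.2% and 42.6%). Gbp2-201 took 100% and 99.1% of Gbp2, and Gbp7-202 took 72.8% and 75.5% of Gbp7, the rest being coding. The deposited shares differed most between the libraries in Gbp3, with Gbp3-202 at 57.5% and 68.5% and Gbp3-203 at 39.7% and 26.9%, both coding. The deposited bounds of the posterior mean TPM of each overlapped between the libraries, however. They were 31.4 to 63.0 and 36.4 to 58.9 for Gbp3-202, and 4.83 to 37.1 and 7.66 to 34.5 for Gbp3-203. Gbp5 was the exception on chromosome 3, with 63.2% and 65.7% in its coding transcript Gbp5-201 and 19.5% and 16.9% in the processed transcript Gbp5-204.

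Over all members, transcripts annotated for nonsense-mediated decay took 13.1% and 12.0% of the summed TPM, against 4.55% and 4.49% over the detected protein-coding genes. Coding transcripts took 78.2% and 80.5% in the members and 78.2% and 78.1% over those genes. Retained introns took 6.36% and 5.68% in the members, below the 11.2% and 11.4% over those genes. No test was made of these shares, and most of the decay class in the members is the single transcript Gbp4-202.

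**Figure D3:**
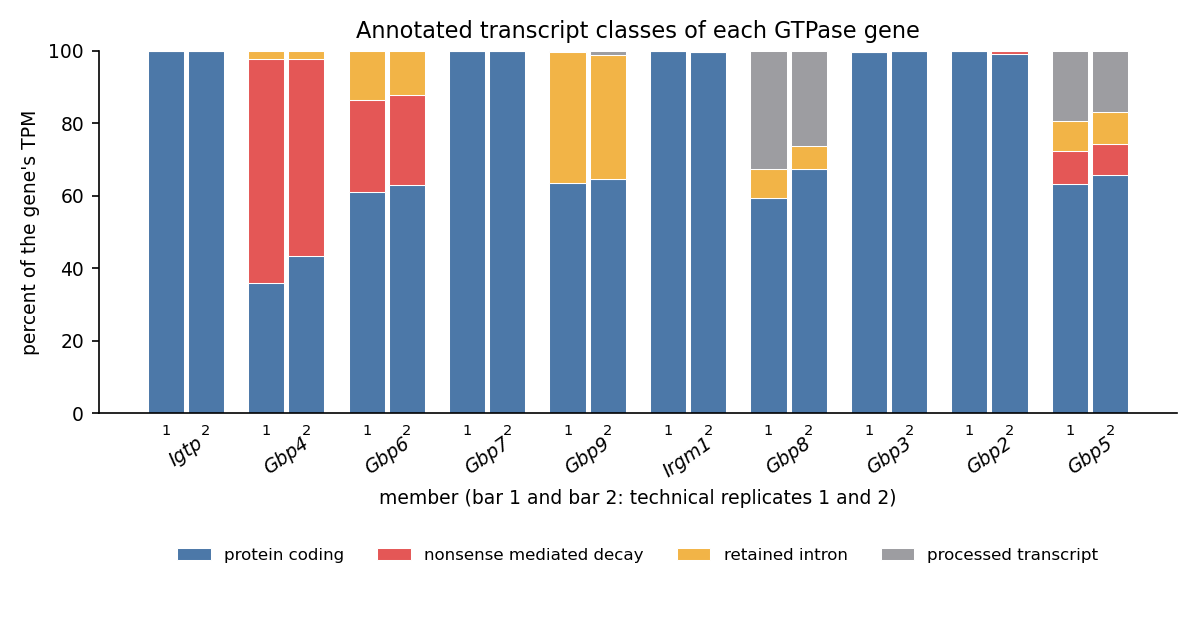
The percent of each member's TPM in annotated transcript classes, with bar 1 and bar 2 for technical replicates 1 and 2. Gbp4 is mainly in the nonsense-mediated decay class (61.9% and 54.2%), Gbp9 has a large retained intron class, and Igtp, Gbp7, Irgm1, Gbp3 and Gbp2 are almost wholly coding.

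The last comparison asks how well the 2 libraries agree on each member. The members lay close together in the libraries: the median size of their log2 ratio, technical replicate 2 over 1, was 0.045, against 0.121 over the 4412 genes with at least 2000 counts and 0.244 over all 16553 genes tested. By a two-sided exact binomial test with Benjamini-Hochberg adjustment over all tested genes, 2 of the 10 members differed at an adjusted p under 0.05, while 34.7% of all tested genes did, 21.6% higher and 13.0% lower in technical replicate 2. Of these members 1 was higher and 1 lower. With scaling by DESeq2 size factors, none was higher and 4 were lower, while 36.6% of all tested genes were called, 19.8% higher and 16.8% lower. With scaling by total counts, none was higher and 5 were lower, while 38.9% of all tested genes were called, 18.7% higher and 20.3% lower. The members' count thus lay below the share of all genes under the first scaling and above it under the others. Calls by this test depend on the count, and 57.2% of the 4412 genes with at least 2000 counts were called under the first scaling. None of these counts is a result about the members.

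Igtp had 10251 and 9194 rounded counts and was higher in technical replicate 2, by a log2 ratio of 0.08 ± 0.02 (counting SE) with an adjusted p of 0.00101 in the exact binomial test. Gbp4 had 11790 and 9585 counts and was lower, by a log2 ratio of -0.07 ± 0.02 (counting SE) with an adjusted p of 0.00413 in the same exact test. Its TPM was nevertheless higher in technical replicate 2, and its deposited average length, by which TPM is scaled, went from 3342 to 3080 bases as the share of Gbp4-202 went from 61.9% to 54.2%. With edgeR's exactTest, which adds a common dispersion, both calls were lost with the ratios as they were, 0.08 for Igtp and -0.07 for Gbp4. That dispersion (a coefficient of variation of 16.4%) was estimated from these same 2 libraries taken as 1 group. It thus counts their difference as noise, and the loss of such small differences cannot decide whether they are real. The older counts gave 0.06 for Igtp, not called, and 0.0074 for Gbp4, not called and of the other sign. Removal of the local trend with GC content took the ratios to 0.03 and -0.0076, neither called. With DESeq2 size factors Igtp stood at 0.04 and with total counts at 0.01, neither called, while Gbp4 stayed called at -0.10 and -0.13. The median GC content was 45.8% in the members and 49.8% over 11155 genes with at least 100 counts.

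For the other 8 members the adjusted p lay between 0.0656 (Gbp5) and 1 (Irgm1) by the exact binomial test. Their log2 ratios ran from -0.12 ± 0.05 (counting SE) in Gbp5, the member with the fewest counts, to 0.05 ± 0.04 in Gbp3. A missed threshold does not show that the libraries held equal amounts.

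**Figure D4:**
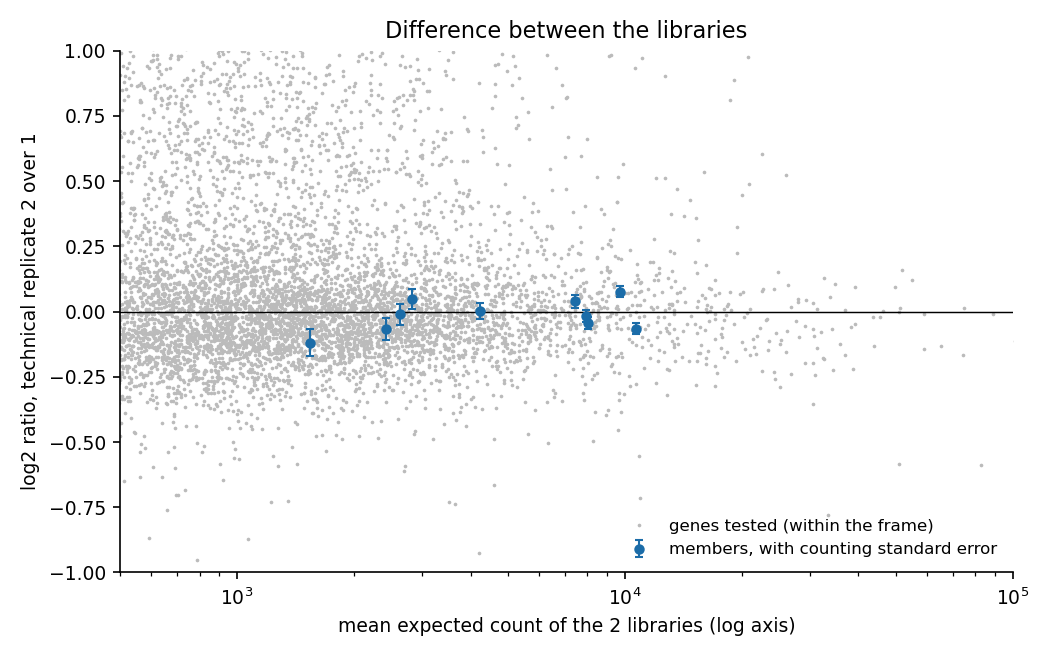
The log2 ratio of technical replicate 2 over 1 for the genes tested (grey) and the 10 members (blue, bars are counting standard errors), against the mean expected count on a log axis; genes outside the frame are not drawn. The members lie between -0.12 and 0.08, inside the spread of genes with similar counts.

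Genes of the interferon pathway, the known inducer of both families, were measured in the same libraries. All 4 interferon receptor genes were detected, with Ifngr1, the ligand-binding chain of the interferon gamma receptor, at 340 and 378 TPM and Ifngr2, its signalling partner, at 14.1 and 25.8 TPM. Ifnar1 stood at 156.5 and 178 TPM and Ifnar2 at 58.7 and 118 TPM. All 4 were higher in technical replicate 2 by the exact binomial test, where 21.6% of all tested genes were higher. Their median log2 ratio was 0.56, against a median of 0.02 over all tested genes. The part of GC content or library handling in this was not tested.

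All 12 interferon signal transducers were detected, 6 higher and 2 lower in technical replicate 2, where 21.6% of all tested genes were higher and 13.0% lower. The transcription factor Irf1 stood at 352 and 359 TPM and Irf9 at 191 and 195 TPM. The kinase Jak1 stood at 260 and 498 TPM, and the feedback inhibitor Socs3 at 41.3 and 91.7 TPM. Of the 7 interferon ligands 1 was detected, Ifng, at 6.88 and 5.41 TPM, and 5 were listed at 0 in both libraries, where a count of 0 allows up to 3 counts in each.

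Of the 12 related GTPases, all were detected, with 2 higher and 6 lower in technical replicate 2 (21.6% and 13.0% of all tested genes), and they summed to 1494 and 1408 TPM, against 1595 and 1632 TPM for the members. Ifi47, an Irg protein, stood above Igtp at 433 and 418 TPM, and the Irg effectors Tgtp2 and Tgtp1, which share most of their windows with each other, stood at 291 and 278 TPM and at 235 and 188 TPM. Gbp2b, the nearest copy of Gbp2, stood at 21.6 and 25.6 TPM, and Gbp11 was the lowest at 4.48 and 3.26 TPM.

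Genes that work with the proteins were listed too, and their calls stand against the same 21.6% higher and 13.0% lower over all tested genes. All 10 genes of the autophagy conjugation system, which directs Irg and Gbp proteins to vacuoles, were detected, with 2 higher and 2 lower in technical replicate 2, led by Gabarap at 400 and 359 TPM. All 5 enzymes that attach or process prenyl lipids, the modification of Gbp2 and Gbp5, were detected, with 3 higher and 1 lower. Of 8 inflammasome partners 6 were detected, none higher and 2 lower, with the adaptor Pycard at 288 and 277 TPM and the pore-forming protein Gsdmd at 169 and 179 TPM. The sensor Nlrp3, at 0 and 0.02 TPM, and the cytokine Il1b, at 0.05 and 0.06 TPM, were near 0.

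**Figure D5:**
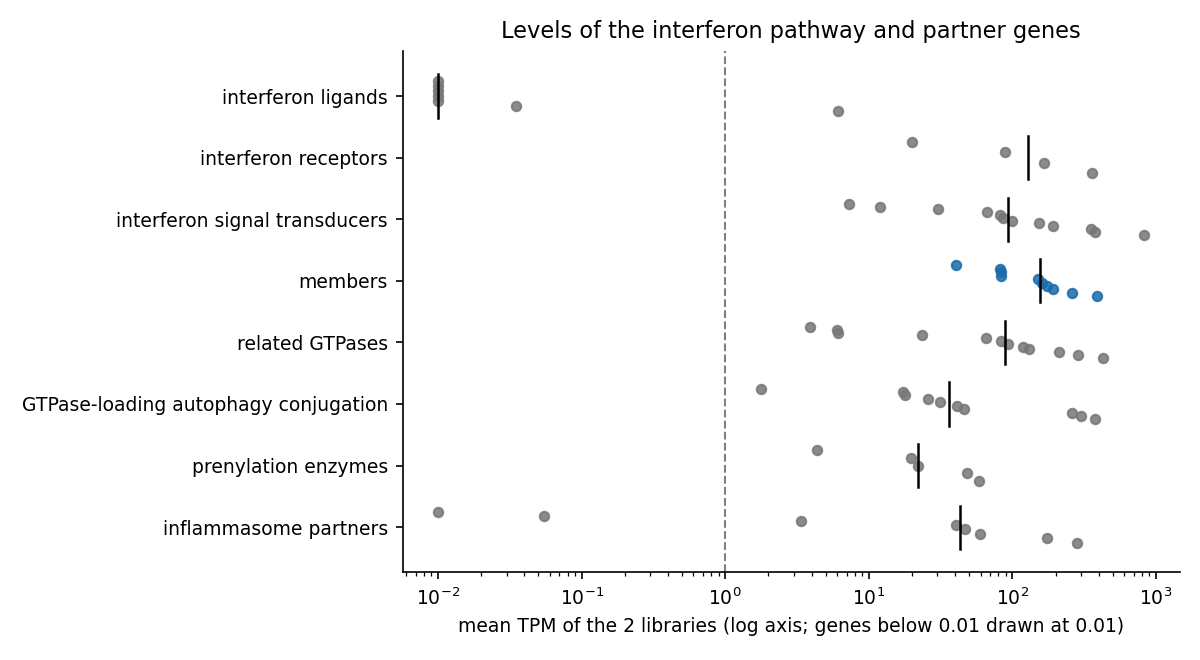
The mean TPM over the 2 libraries (log axis) of each gene in the interferon ligand, receptor and signal transducer lists, the members, the related GTPases and 3 lists of partner genes, with the median of each list as a bar and 1 TPM as a dashed line. The members' median is 156 TPM, and most interferon ligands lie at the left edge, where genes below 0.01 TPM are drawn.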

How the data were processed

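Polyadenylated RNA was measured in 2 technical replicate libraries of regulatory T cells, grouped by the labels alone. The authors deposited gene and transcript tables made on mm10 with GENCODE M21, per the text deposited beside them. For the aligner and quantifier, names are not given in the sources used here. For each gene the authors deposited an expected count, an estimate that need not be whole because shared reads are divided. The deposited TPM and FPKM values were already scaled by the authors for length and depth. The posterior mean TPM with its bounds is a signal deposited by the authors, per the file headers. The percent of a gene's TPM in each transcript was deposited too, per the file headers. The whole-number counts of the older tables, on GENCODE M4, were deposited as such.

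Rows naming no gene (0.307% and 0.242% of counts) stayed out. Expected counts were rounded, scaled with TMM (edgeR 4.0.16, R 4.3.3) and compared per gene by a two-sided exact binomial test (scipy 1.17.1) over genes with at least 10 counts, with Benjamini-Hochberg adjustment and a threshold of 0.05. Log2 ratios add 0.5 to each count. With 1 library on each side, the quasi-likelihood model of edgeR could not be fitted. The test was tested on simulated counts with counting error alone, which does not show how it behaves on other differences between libraries. Coding sequences were taken from the protein-coding transcript with the longest coding part and aligned globally (Biopython 1.88). Alternatives were DESeq2 1.42.0 size factors, total counts, other filters and counts, edgeR's exactTest and, chosen after seeing the data, removal of a local GC trend. All 10 members are named, with genes from 16 other lists. The members and lists were chosen with earlier results of these data known.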

Additional observations from a re-analysis of the deposited data

How the results depend on the processing

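The count of 10 detected members held with thresholds of 0.5 and 5 TPM, with posterior mean TPM and with each library left out (10 to 10). Of the members differing between libraries there were 2, where 34.7% of all tested genes were called. There were also 2 with no count filter (19.2% of all tested genes), with at least 50 counts (44.2%) and with posterior mean counts (33.2%). Size factors from DESeq2 gave 4 (36.6% of all tested genes), and total counts gave 5 (38.9%). There were 0 with edgeR's exactTest on a common dispersion (0 at an unadjusted p under 0.05), with 1.87% of all genes called. The older counts gave 0 of 8 (0 unadjusted), with 27.1% of all tested genes called. Removal of the local GC trend, chosen after seeing the data, gave 0 (1 unadjusted), with 33.7% of all tested genes called. The exact binomial test gave 3 at an unadjusted p under 0.05. Directions reversed in Gbp3 (-0.015), Gbp7 (-0.025) and Irgm1 (-0.062) with total counts, in Irgm1 with DESeq2 size factors (-0.033) and GC removal (-0.022), and in Gbp4 with the older counts (0.0074). The median log2 ratio of all genes was 0.02, -0.02 under DESeq2 scaling and -0.05 under total counts. Posterior mean TPM was 0.892 to 0.910 of TPM in the members. Leaving out a library moved leading transcript shares by at most 5.49 percentage points. The library comparison needs both libraries, so neither could be left out there. No paired analysis was possible because there is 1 group.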

Other observations

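The older and newer tables differ in annotation and in the kind of count, whole numbers against expected counts. How the older counts treated shared reads is not stated. Some related GTPases differed widely between the older and newer tables. The older count was 1.62 and 1.49 times the newer expected count for Gbp2b, whereas it was 0.0225 and 0.0271 of it for Tgtp2, 0.0398 and 0.0499 for Tgtp1 and 0.00437 and 0.00465 for Gvin1, a very large interferon-induced GTPase. Gbp11 had no counts in the older tables of either library. In the windows of 50 bases, Gvin1 shared 99.2% with other genes, Tgtp2 86.6%, Tgtp1 81.2%, Gbp11 19.2% and Gbp2b 1.84%. These values stand side by side, and no relation between them was tested.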
